A study of Homo sapiens with 8 samples.

Results

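The HOX genes of the HOXA, HOXB, HOXC and HOXD clusters were described in 8 RNA-seq libraries from the esophageal squamous cell carcinoma cell lines KYSE70 and KYSE450. Members were taken by name, as every row called HOXA, HOXB, HOXC or HOXD plus a number in all of the tables, which leaves out the antisense RNAs of the clusters. This gave 39 of 48162 genes: 11 in HOXA on chromosome 7, 10 in HOXB on chromosome 17, 9 in HOXC on chromosome 12 and 9 in HOXD on chromosome 2. Both lines were grown between passages 5 and 10, and each gave 1 library to every one of 4 groups. The overexpression control and NMR overexpression groups form the plasmid arm, in which cells were transfected with the expression plasmid PCDNA3.1; NMR is a long noncoding RNA. The knockdown control and NMR knockdown groups form the lentiviral arm, in which cells were infected with virus made in HEK 293T packaging cells. The labels give neither the contents of the control constructs nor the time of harvest. A group therefore holds 2 libraries, 1 per line, and no line is repeated within a group. NMR carries no such name in the tables and its level was not analysed here, so neither the overexpression nor the knockdown could be checked.

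HOX genes code for homeodomain transcription factors that give cells their position along the body axis. Each cluster is a row of genes transcribed in 1 direction, and genes at the same position in different clusters (a paralog group, which gives the gene its number) are more like each other than like their neighbours. Low numbers lie at the 3′ end of a cluster and are used toward the head of the embryo, while high numbers lie at the 5′ end and are used toward the tail. Polycomb proteins keep unused stretches of a cluster silent and trithorax proteins keep used stretches active, so cell lines often carry the HOX pattern of their tissue of origin, altered in many tumors.

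Expression is given as FPKM, a read number divided by gene length and by the depth of the library. Whole reads could be recovered from the values: the libraries held 26401805 to 37937856 reads, and 1 read in a gene of 1 kb was worth 0.0263 to 0.0378 FPKM. Levels of different genes are compared here per length as the authors set the lengths, which ran from 0.202 to 1.78 times the summed exon length in GENCODE release 29, so an order of levels between genes rests on those lengths. The lines carried the markers of squamous epithelium, with 11 of 12 at a mean of 1 FPKM or more in each line. The exceptions were KRT17 in KYSE70 and ITGB4 in KYSE450. Of the intestinal markers 0 of 7 reached that level in either line, and of the blood and endothelial markers 1 of 9, VWF. Of the fibroblast and muscle markers 4 of 11 reached it in KYSE70 and 3 of 11 in KYSE450. The KYSE70 knockdown library stood apart in its share of mitochondrial transcripts, which made up 8.63% of its FPKM against 3.84% to 5.75% in the other 7 libraries.

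The genes of paralog group 10 recur in the results below, and their products bind DNA through a recognition helix. To show how close the genes are, the 48 bases that code for most of this recognition helix are given from the GENCODE release 29 transcripts, 5′ to 3′, with capitals at the bases that are not the same in all 3 members.
HOXA10: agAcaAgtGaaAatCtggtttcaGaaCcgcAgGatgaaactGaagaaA
HOXC10: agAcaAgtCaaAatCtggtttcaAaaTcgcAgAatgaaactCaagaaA
HOXD10: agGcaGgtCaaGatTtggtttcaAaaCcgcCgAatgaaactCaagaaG
Of the 48 bases 11 varied, and the 3 stretches code for the same amino acids. Over whole transcripts, 8 of the 741 pairs of members shared a run of at least 50 identical bases, and 7 of these pairs lie within 1 cluster. HOXC4 and HOXC6, HOXD10 and HOXD11, and HOXB3 and HOXB6 shared runs of at least 150 bases. In GENCODE release 29, 25 of the 39 members have exons that overlap another gene, 18 on the same strand and 19 on the other. How the counting treated strand and shared exons is not stated in any source used here, so reads of those members cannot be told apart from reads of the genes that overlap them.

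A total of 21 members reached a mean of 1 FPKM in KYSE70 and 22 in KYSE450; 18 did so in both lines, 3 only in KYSE70 and 4 only in KYSE450. More members were expressed toward the 5′ end of the clusters. Of paralog groups 1 to 3, 3 of 8 members reached 1 FPKM in a line, of groups 4 to 8, 9 of 15, and of groups 9 to 13, 13 of 16. Groups 9 to 13 summed to 93.4 ± 4.52 FPKM (SD, n = 4 libraries) of a total of 139.5 ± 6.09 FPKM over all members in KYSE70, and to 86.7 ± 11.9 of 134 ± 10.5 FPKM in KYSE450. The totals of the lines differed by less than the larger SD, while the clusters behind them were not the same. HOXC led in KYSE70 with 63.0 ± 7.85 FPKM against 14.3 ± 4.01 FPKM in KYSE450, and HOXA led in KYSE450 with 76.9 ± 5.47 FPKM against 31.5 ± 3.22 FPKM in KYSE70. In each case 1 gene made up most of the leading sum. HOXC10 had a mean of 38.4 FPKM in KYSE70 and 2.34 FPKM in KYSE450, and HOXA9 47.0 FPKM in KYSE450 and 3.76 FPKM in KYSE70. HOXB summed to 33.1 ± 1.65 FPKM in KYSE70 and 33.7 ± 4.66 FPKM in KYSE450, and HOXD to 12.0 ± 4.78 and 9.22 ± 1.38 FPKM. Across the 39 members the mean levels of the lines had a rank correlation of 0.74 (Spearman), a description over genes that share libraries and lengths.

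**Figure D1:**
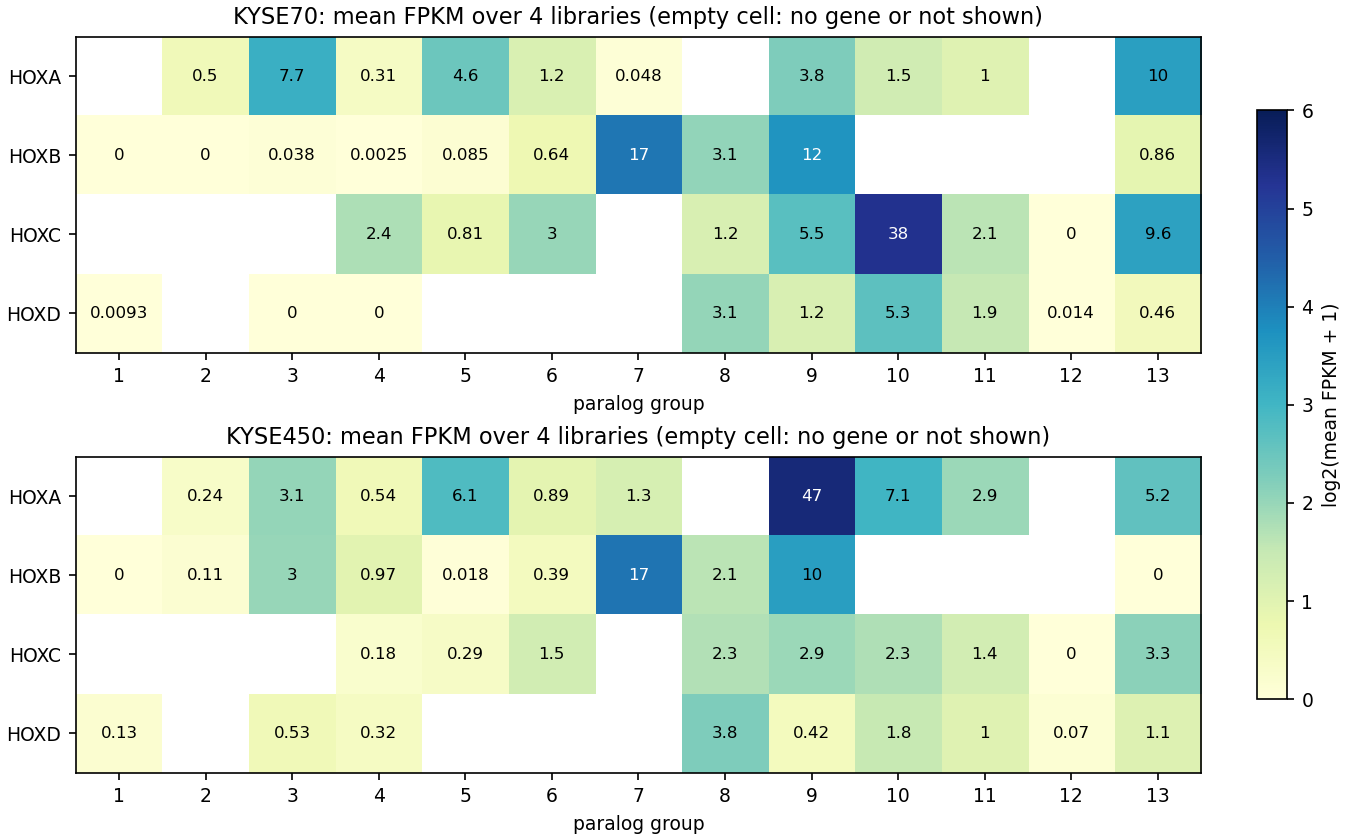
Mean FPKM of each HOX gene over the 4 libraries of KYSE70 (top) and KYSE450 (bottom), with clusters as rows and paralog groups as columns; color gives log2(mean FPKM + 1) and empty cells have no gene or are not shown. HOXC10 is the darkest cell in KYSE70 (38.4 FPKM) and HOXA9 in KYSE450 (47.0 FPKM), while HOXB1 and HOXC12 are at 0 in both.

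Values by library are given below in the order overexpression control, NMR overexpression, knockdown control, NMR knockdown. In the HOXA cluster the line difference was not the same along the row. HOXA9, a regulator of blood stem cells and of leukemias, had 4.04, 3.75, 3.7 and 3.56 FPKM in KYSE70 and 41.6, 44, 58 and 44.6 FPKM in KYSE450, so that each KYSE450 library lay above each KYSE70 library. Its neighbour HOXA10, which patterns the limb and the uterus, had 2.35, 2.58, 0.597 and 0.543 FPKM in KYSE70 and 8.79, 9.81, 4.21 and 5.5 FPKM in KYSE450. The next gene, HOXA11, which patterns forearm and kidney, had 1.22, 1.28, 0.733 and 0.904 FPKM in KYSE70 and 4.15, 3.78, 1.79 and 1.76 FPKM in KYSE450. Both were again higher in each KYSE450 library, and both were lower in the lentiviral arm of each line. HOXA13, the last gene of the row and a regulator of hindgut and limb ends, had 9.12, 8.51, 7.75 and 14.7 FPKM in KYSE70 and 4.94, 5.84, 4.19 and 5.68 FPKM in KYSE450. It was the reverse of its neighbours, with each KYSE70 library above each KYSE450 library, and its highest value was in the KYSE70 knockdown library.

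Because HOXA9, HOXA10 and HOXA11 are neighbours that were all higher in KYSE450, the 250 bases before their RefSeq starts are shown (GRCh38.p14, minus strand, capitals mark CG pairs, the sites of DNA methylation). HOXA10 has another start in the table and the one farther from HOXA9 is printed. The windows are chr7:27165538-27165787, chr7:27179862-27180111 and chr7:27185233-27185482.
HOXA9: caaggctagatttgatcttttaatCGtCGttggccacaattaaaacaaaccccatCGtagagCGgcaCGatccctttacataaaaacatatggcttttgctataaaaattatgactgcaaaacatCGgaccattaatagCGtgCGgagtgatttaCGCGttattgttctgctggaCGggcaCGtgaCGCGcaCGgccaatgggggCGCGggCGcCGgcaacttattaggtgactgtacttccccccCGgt
HOXA10: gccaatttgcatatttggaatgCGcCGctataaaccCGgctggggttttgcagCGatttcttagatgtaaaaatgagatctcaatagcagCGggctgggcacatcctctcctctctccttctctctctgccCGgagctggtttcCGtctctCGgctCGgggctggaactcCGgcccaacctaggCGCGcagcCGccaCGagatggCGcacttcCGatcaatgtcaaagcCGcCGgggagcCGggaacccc
HOXA11: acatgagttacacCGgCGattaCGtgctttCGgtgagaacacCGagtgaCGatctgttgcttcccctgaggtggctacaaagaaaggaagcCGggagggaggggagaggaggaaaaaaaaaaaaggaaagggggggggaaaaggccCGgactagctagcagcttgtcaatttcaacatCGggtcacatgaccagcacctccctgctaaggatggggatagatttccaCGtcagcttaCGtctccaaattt
They hold 20, 19 and 11 CG pairs. RefSeq windows, from 250 bases before to 50 bases after a start, matched 20 of the 39 members, with 26 starts in all, since HOXA3 has 7, HOXA10 has 2, and HOXC4 and HOXC5 share 1. These 26 windows of 300 bases had a median of 22.5 CG pairs, against 14 over 34943 windows of the same length. The motif TATAAA stood on either strand in 5 of the 26 windows (19.2%, against 11.6% of all windows), CCAAT in 17 (65.4% against 34.6%) and GGGCGG in 13 (50% against 44.9%). None of these motifs contains another, and a match is only a description of the letters.

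Among the 3′ HOXA genes, HOXA3, which is needed for thymus and parathyroid, had 6.68, 8.16, 6.68 and 9.25 FPKM in KYSE70 and 2.41, 2.38, 4.28 and 3.18 FPKM in KYSE450, so that each KYSE70 library lay above each KYSE450 library. HOXA5, a regulator of lung and gut development, had 4.51, 4.26, 5.59 and 4.0 FPKM in KYSE70 and 7.36, 9.02, 4.5 and 3.58 FPKM in KYSE450, and its lines overlapped. HOXA6 overlapped too, with 1.23, 1.38, 1.51 and 0.679 FPKM in KYSE70 and 1.17, 1.04, 0.509 and 0.85 FPKM in KYSE450. HOXA7 was nearly absent from KYSE70, with 0.062, 0.13, 0 and 0 FPKM in KYSE70 and 2.01, 1.7, 0.795 and 0.666 FPKM in KYSE450. In KYSE450 both plasmid libraries lay above both lentiviral libraries. HOXA2 and HOXA4 stayed between 0.199 and 0.769 FPKM in every library.

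The HOXB cluster showed 1 block shared by the lines. HOXB7, which is often raised in carcinomas, had 21, 19.9, 13.9 and 11.3 FPKM in KYSE70 and 22.6, 23.3, 10.2 and 11.6 FPKM in KYSE450. The lines overlapped, and in each line the plasmid libraries lay above the lentiviral ones. HOXB8, known from myeloid cells, had 3.14, 2.44, 2.91 and 4.11 FPKM in KYSE70 and 0.811, 1.75, 3.18 and 2.71 FPKM in KYSE450, with no separation of the lines. HOXB9, a regulator of the thoracic skeleton and the mammary gland, had 9.2, 8.27, 14.4 and 15.3 FPKM in KYSE70 and 2.54, 3.13, 23.4 and 11.7 FPKM in KYSE450. It was the member with the widest span in KYSE450, where the knockdown control library was the highest and the overexpression control library the lowest. Toward the 3′ end, HOXB3 had 0, 0, 0.025 and 0.125 FPKM in KYSE70 and 3.65, 3.36, 2.2 and 2.75 FPKM in KYSE450, so it was at or near 0 throughout KYSE70. HOXB4, known for expanding blood stem cells, followed it with 0.896 to 1.08 FPKM in KYSE450 and at most 0.0101 FPKM in KYSE70. HOXB2, HOXB5 and HOXB6 had at most 0.943 FPKM, and HOXB1 had no read in any library. The 5′ end gene HOXB13, a prostate and hindgut factor, had 0.611 to 1.04 FPKM in KYSE70 and no read in KYSE450. Taking 3 reads over the 4 KYSE450 libraries as the limit of detection, HOXB13 was at least 122-fold lower there.

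In the HOXC cluster the highest level in KYSE70 was that of HOXC10, a posterior gene active in hindlimb and trunk. It had 42.2, 43.1, 32.6 and 35.7 FPKM in KYSE70 and 2.55, 3.27, 1.74 and 1.78 FPKM in KYSE450, with no overlap between the lines. HOXC13, which controls hair and nail keratins, had 8.81, 9.72, 9.96 and 9.74 FPKM in KYSE70 and 3.45, 3.62, 3.25 and 3.03 FPKM in KYSE450, a narrow spread within each line. HOXC4, the first gene of the row, had 2.38, 2.39, 2.41 and 2.41 FPKM in KYSE70 and 0.265, 0.191, 0.084 and 0.163 FPKM in KYSE450. All 3 were higher in each KYSE70 library. HOXC6 had 3.56, 3.3, 2.44 and 2.63 FPKM in KYSE70 and 1.67, 2.4, 0.944 and 0.884 FPKM in KYSE450, also higher throughout KYSE70. HOXC8, a gene of the brachial spinal cord, had 1.31, 1.61, 0.987 and 1.09 FPKM in KYSE70 and 3.03, 2.45, 2.09 and 1.7 FPKM in KYSE450, and each KYSE450 library lay above each KYSE70 library. HOXC9, a gene of the thoracic spinal cord, had 7.17, 7.02, 4.69 and 3.12 FPKM in KYSE70 and 3.44, 4.18, 1.6 and 2.36 FPKM in KYSE450. HOXC11 had 2.45, 2.72, 2.17 and 1.13 FPKM in KYSE70 and 2.07, 1.99, 0.715 and 0.903 FPKM in KYSE450. Their lines overlapped, and their lentiviral libraries were lower in both lines. HOXC5 had 0.155 to 1.06 FPKM, higher in KYSE70, and HOXC12 had no read.

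HOXC4 and HOXC5 had higher values in each KYSE70 library and share 1 RefSeq start, whose 250 preceding bases are therefore shown (chr12:54016638-54016887, GRCh38.p14, plus strand, CG pairs in capitals).
HOXC4 and HOXC5: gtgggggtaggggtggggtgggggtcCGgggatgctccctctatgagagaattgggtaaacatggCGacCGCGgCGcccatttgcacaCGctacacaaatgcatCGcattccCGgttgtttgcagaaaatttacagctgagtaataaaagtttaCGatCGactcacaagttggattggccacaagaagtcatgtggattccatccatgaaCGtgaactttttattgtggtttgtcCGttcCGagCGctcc
This window holds 14 CG pairs. In RefSeq the first exon of that start belongs to both genes. In GENCODE release 29 the HOXC5 gene described here starts downstream of it, at chr12:54032853, so the shared start need not bear on the HOXC5 values.

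The HOXD genes with a mean of 1 FPKM or more in a line were HOXD8, HOXD9, HOXD10, HOXD11 and HOXD13, with HOXD9 only in KYSE70 and HOXD13 only in KYSE450. HOXD8 had 1.44, 2.95, 3.3 and 4.71 FPKM in KYSE70 and 3.16, 3.91, 4.2 and 4.02 FPKM in KYSE450, and the lines overlapped. HOXD9, a gene of the limb and lower spine, had 0.946, 1.43, 1.33 and 1.2 FPKM in KYSE70 and 0.336, 0.353, 0.566 and 0.438 FPKM in KYSE450, higher in each KYSE70 library. HOXD10, which acts in hindlimb motor neurons, had 2.49, 3.22, 6.3 and 9.15 FPKM in KYSE70 and 1.08, 1.34, 2.61 and 2.21 FPKM in KYSE450. In each line, both lentiviral libraries lay above both plasmid libraries. HOXD11, a gene of forearm and kidney, had 1.37, 1.83, 2.03 and 2.25 FPKM in KYSE70 and 0.715, 1.0, 1.1 and 1.24 FPKM in KYSE450, also higher in each KYSE70 library. HOXD13, the digit gene at the end of the row, had 0.596, 0.268, 0.472 and 0.523 FPKM in KYSE70 and 1.12, 1.53, 0.881 and 0.839 FPKM in KYSE450, higher in each KYSE450 library. HOXD3 and HOXD4 had no read in KYSE70 and 0.346 to 0.659 and 0.277 to 0.413 FPKM in KYSE450. With 3 reads over the 4 KYSE70 libraries as the limit, HOXD3 was at least 42.3-fold and HOXD4 at least 18.1-fold lower in KYSE70. HOXB2, also without a read in KYSE70, had at most 0.193 FPKM in KYSE450, at least 4.61-fold above the KYSE70 limit on average. HOXD1 and HOXD12 stayed at or below 0.272 FPKM. Limits and recovered reads cover counting error only.

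**Figure D2:**
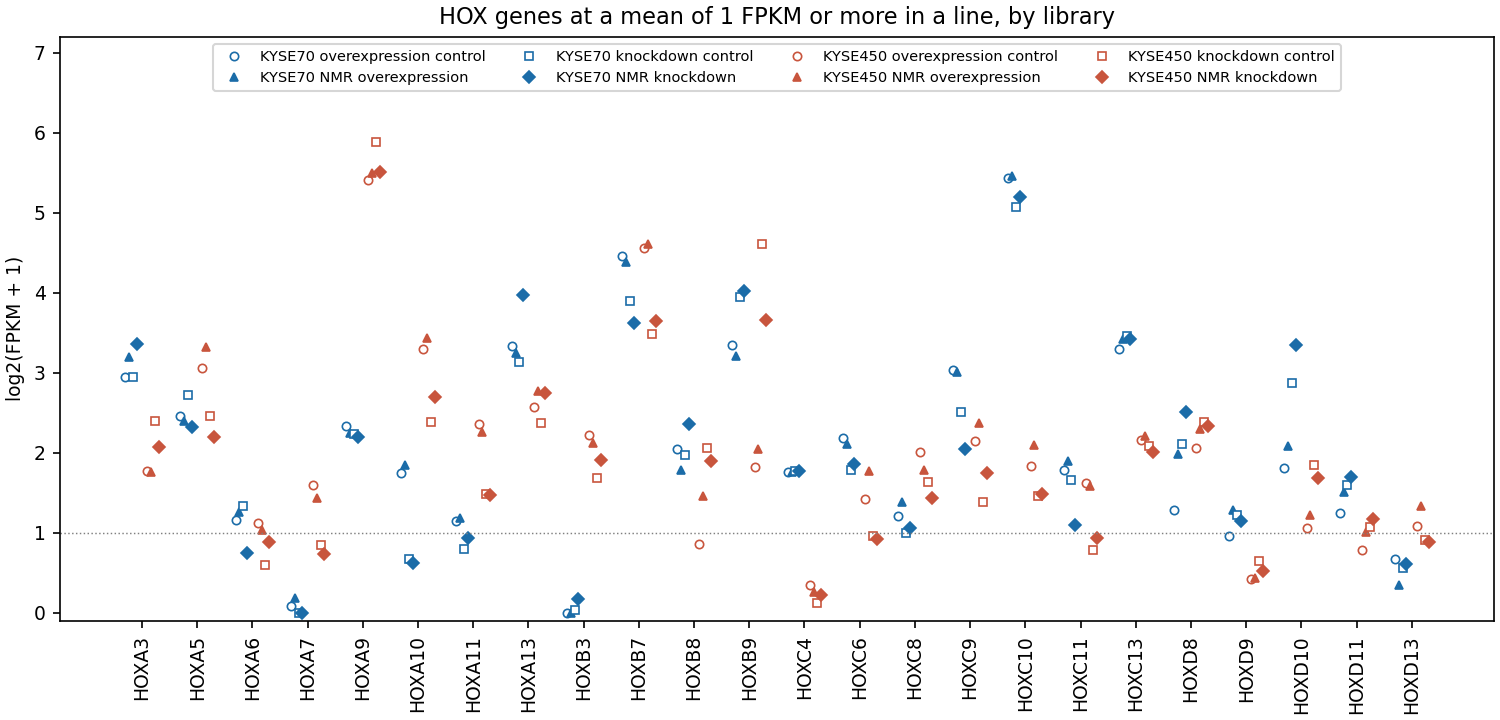
Each point is 1 library: log2(FPKM + 1) of 24 of the 25 HOX genes with a mean of 1 FPKM or more in a line, KYSE70 in blue and KYSE450 in red, controls open and treated libraries filled; the dotted line marks 1 FPKM. HOXA9 and HOXB3 separate upward in KYSE450 and HOXC10 and HOXC4 in KYSE70, and HOXB7, HOXA10 and HOXD10 separate by arm within each line.

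For tests, log2(FPKM + 1) was fitted with limma over the 14311 genes with a mean of at least 1 FPKM in the 8 libraries, with p-values adjusted over all of them by Benjamini and Hochberg. Of the 39 members 22 passed this filter, and some, such as HOXB3 and HOXC4, passed through the line in which they were high. Counts over those 22 are therefore a description. HOXA7, HOXD9 and HOXD13 reached 1 FPKM in 1 line only and were not tested. Nothing in the labels states separate cultures for the libraries of a line, so the p-values measure the spread between these libraries, part of which may be technical. In the test between the lines that spread also holds the differences between arms and treatments. In the test between the arms it holds those between treatments and any arm difference that varies by line. In the treatment tests it measures how far a change differed between the lines, with overexpression and knockdown pooled in 1 estimate.

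Between the lines, 14 of the 22 members differed at an adjusted p under 0.05, against 50.3% of all genes tested. Higher in KYSE70 were 8 members (24.7% of all genes) and higher in KYSE450 were 6 (25.6% of all genes). With quantile normalization 14 members were again called, 10 higher in KYSE70 and 4 in KYSE450, and HOXA11 and HOXC8 were not among them. Of all genes 51.7% were then called, and their median difference moved from -0.02 to 0.01. In the main fit the share called is near that of all genes. Its median difference, KYSE70 minus KYSE450, was 0.43 over the members and -0.02 over all genes on the log2 scale. HOXC10 had the largest difference toward KYSE70, 3.58 ± 0.19 (SE, limma adjusted p = 3.23e-07), a mean of 38.4 ± 5.10 against 2.34 ± 0.728 FPKM (SD, n = 4 libraries). HOXA9 had the largest toward KYSE450, -3.32 ± 0.14 (limma adjusted p = 9.38e-08), a mean of 3.76 ± 0.201 against 47.0 ± 7.40 FPKM. In linear terms these are 16.4-fold and 12.5-fold. The other members higher in KYSE70 were HOXC4 (1.53 ± 0.13), HOXC13 (1.28 ± 0.13), HOXA3 (1.11 ± 0.19), HOXD10 (1.07 ± 0.34), HOXA13 (0.81 ± 0.21), HOXC6 (0.72 ± 0.22) and HOXD11 (0.51 ± 0.16). Those higher in KYSE450 included HOXB3 (-1.93 ± 0.16), HOXA10 (-1.73 ± 0.35), HOXA11 (-0.88 ± 0.24) and HOXC8 (-0.55 ± 0.17). Log2 values after adding 1 understate the change of low genes.

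Members of 1 paralog group did not differ between the lines in the same way. HOXA10 was higher in KYSE450 while HOXC10 and HOXD10 were higher in KYSE70, and HOXA9 was higher in KYSE450 while HOXC9 (0.73 ± 0.28, limma adjusted p = 0.0546) and HOXB9 (0.60 ± 0.56, limma adjusted p = 0.402) did not pass. This test has no term for the arm. Within each arm, both KYSE70 libraries of HOXC9 lay above both KYSE450 libraries, while HOXB9 did so in the plasmid arm only. HOXA13 and HOXC13 were both higher in KYSE70. HOXA3 was higher in KYSE70 and HOXB3 in KYSE450. The smallest difference was that of HOXB7, 0.01 ± 0.30. Leaving out each of the 8 libraries in turn, 10 of the 14 differences passed every time, and HOXC6, HOXC8, HOXD10 and HOXD11 did not. HOXC6 reached an adjusted p of 0.0582, HOXC8 0.0620, HOXD10 0.0691 and HOXD11 0.0666 at their highest. HOXC6 was lost without the KYSE450 knockdown, KYSE450 knockdown control or KYSE70 overexpression control library. HOXC8 and HOXD10 were lost without the KYSE450 NMR overexpression, KYSE70 knockdown control or KYSE450 overexpression control library, and HOXD11 without either of those controls.

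**Figure D3:**
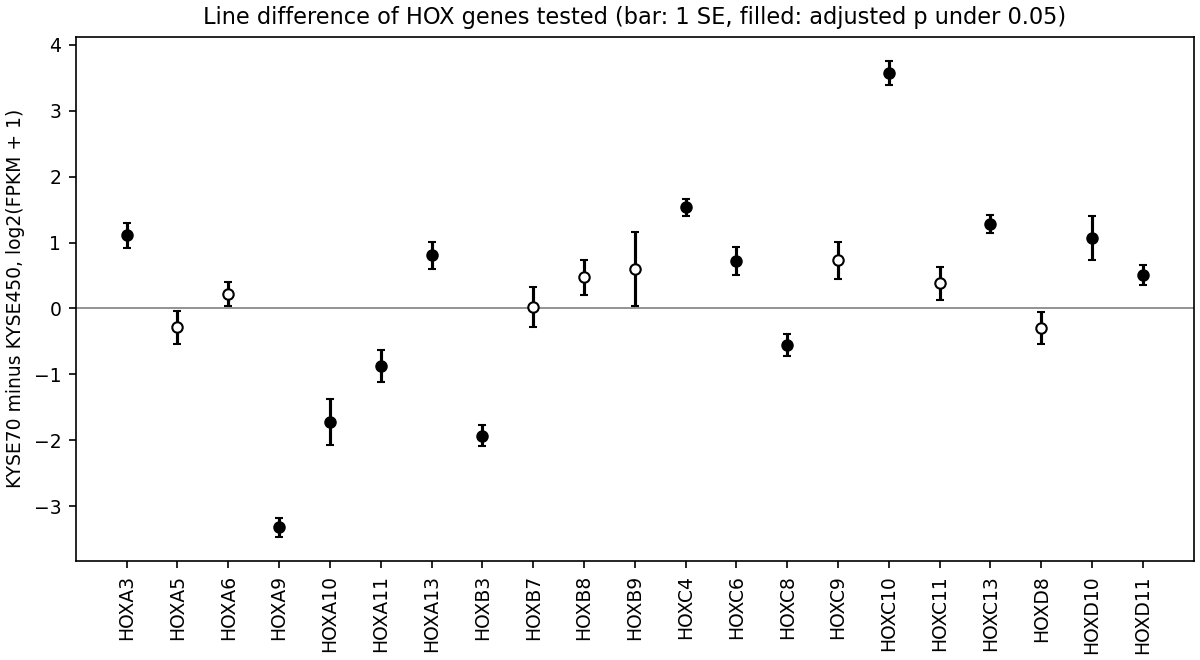
Difference between the lines (KYSE70 minus KYSE450, on log2(FPKM + 1)) for 21 of the 22 HOX genes tested, in cluster order; points are limma estimates with 1 standard error, filled where the adjusted p is under 0.05. HOXC10 (3.58) and HOXA9 (-3.32) are the extremes, and HOXB7 is at 0.01.

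Between the delivery arms, with the line as a term, 8 of the 22 members differed, against 14.4% of all genes tested. Lower in the lentiviral arm were 6 (4.35% of all genes) and higher were 2 (10.0% of all genes). The median arm difference, lentiviral minus plasmid, was -0.10 over the members and 0.07 over all genes. HOXA10 fell by 0.98 ± 0.14 (SE, limma adjusted p = 0.00683) and HOXB7 by 0.84 ± 0.13 (limma adjusted p = 0.00781). HOXC9 (-0.72 ± 0.15), HOXC11 (-0.60 ± 0.16), HOXA11 (-0.57 ± 0.15) and HOXC6 (-0.49 ± 0.14) also fell, with limma adjusted p-values of 0.02, 0.0376, 0.0353 and 0.0490. HOXC10 lay just outside with -0.41 ± 0.12 (limma adjusted p = 0.0514). HOXB9 rose by 1.45 ± 0.32 (limma adjusted p = 0.0206) and HOXD10 by 0.90 ± 0.18 (limma adjusted p = 0.0158).

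By cluster, all 7 HOXC members tested except HOXC4 and HOXC13 had both lentiviral libraries below both plasmid libraries in each line. The HOXC sum was 68.6 and 70.9 FPKM in the KYSE70 plasmid libraries and 56.0 and 56.5 FPKM in the lentiviral ones, and in KYSE450 16.96 and 18.42 against 10.66 and 10.98 FPKM. The 3 HOXD members tested had the opposite direction, with both lentiviral libraries above both plasmid libraries in each line; HOXD8 (0.43 ± 0.20) and HOXD11 (0.25 ± 0.13) did not pass. The HOXD sum was 6.84 and 9.71 against 13.5 and 17.9 FPKM in KYSE70, and 7.42 and 9.12 against 10.7 and 9.58 FPKM in KYSE450. HOXB7 fell and HOXB9 rose although only HOXB8 (0.53 ± 0.20, limma adjusted p = 0.101) lies between them. In GENCODE release 29 HOXB8 and HOXB9 lie inside the span of a long HOXB7 transcript. HOXA9 had 0.08 ± 0.13, while the next gene in the row, HOXA10, fell. Over all members tested, both lentiviral libraries lay below both plasmid libraries 9 times of 22 in KYSE70 and 13 times in KYSE450, against 21.5% and 32.3% of all genes tested. They lay above 8 and 7 times, against 42.7% and 35.2% of all genes. The groups do not share a library, but each holds only 2.

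To show a member that rose in the lentiviral arm, the 250 bases before the HOXD10 start are printed (chr2:176116528-176116777, GRCh38.p14, plus strand, CG pairs in capitals).
HOXD10: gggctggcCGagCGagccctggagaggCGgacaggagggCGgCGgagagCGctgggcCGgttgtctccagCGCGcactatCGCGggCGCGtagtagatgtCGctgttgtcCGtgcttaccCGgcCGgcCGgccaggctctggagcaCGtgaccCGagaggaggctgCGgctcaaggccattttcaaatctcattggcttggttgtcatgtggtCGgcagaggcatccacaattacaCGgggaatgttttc
The window holds 23 CG pairs, and windows for HOXB7 and HOXB9 were not used here.

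Only HOXA10 and HOXB7 of the 8 arm differences passed with each of the 8 libraries left out in turn, with adjusted p-values up to 0.0298 and 0.0401. HOXB9 reached an adjusted p of 0.0690 and was lost without any of the KYSE450 libraries but its knockdown control. HOXD10 reached 0.0562, without the KYSE70 overexpression or overexpression control library or the KYSE450 overexpression control library. HOXC9, HOXA11, HOXC11 and HOXC6 passed in 3, 2, 1 and 1 of the 8 fits. Without the line as a term 0 members were called, against 0.07% of all genes. In KYSE70 alone, where 2 libraries stand against 2, 0 members and 0% of all genes were called. In KYSE450 alone 9 members were called, against 21.5% of all genes. The controls alone, and the treated libraries alone, also gave 0 members called with 1 residual degree of freedom, against 0.51% and 0.04% of all genes. These fits called few genes of any kind, so their zeros say little about the members. The arms differ in delivery, construct and anything else handled apart, and these cannot be told apart.

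The arm difference itself was compared between the lines with an interaction term, which passed for 0 of the 22 members and for 6.88% of all genes (5.28% with a higher arm difference in KYSE70, 1.6% with a lower one). At an unadjusted p under 0.05 were 4 of the 22 members and 3878 of the 14311 genes. HOXB9 had the lowest p: its arm difference was 0.71 in KYSE70 and 2.2 in KYSE450, an interaction of -1.50 ± 0.39 (limma adjusted p = 0.0585). With median-ratio or quantile scaling HOXB9 passed (adjusted p = 0.0454 and 0.0456, limma), so the call depends on the scaling. The median interaction over all genes was 0.12, and -0.05 with median-ratio scaling. HOXA5 differed by 0.09 in KYSE70 and -0.87 in KYSE450 (interaction 0.96 ± 0.27, limma adjusted p = 0.0710). Without the KYSE70 knockdown control library, 5 of the 22 members passed the interaction test, against 36.6% of all genes.

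**Figure D4:**
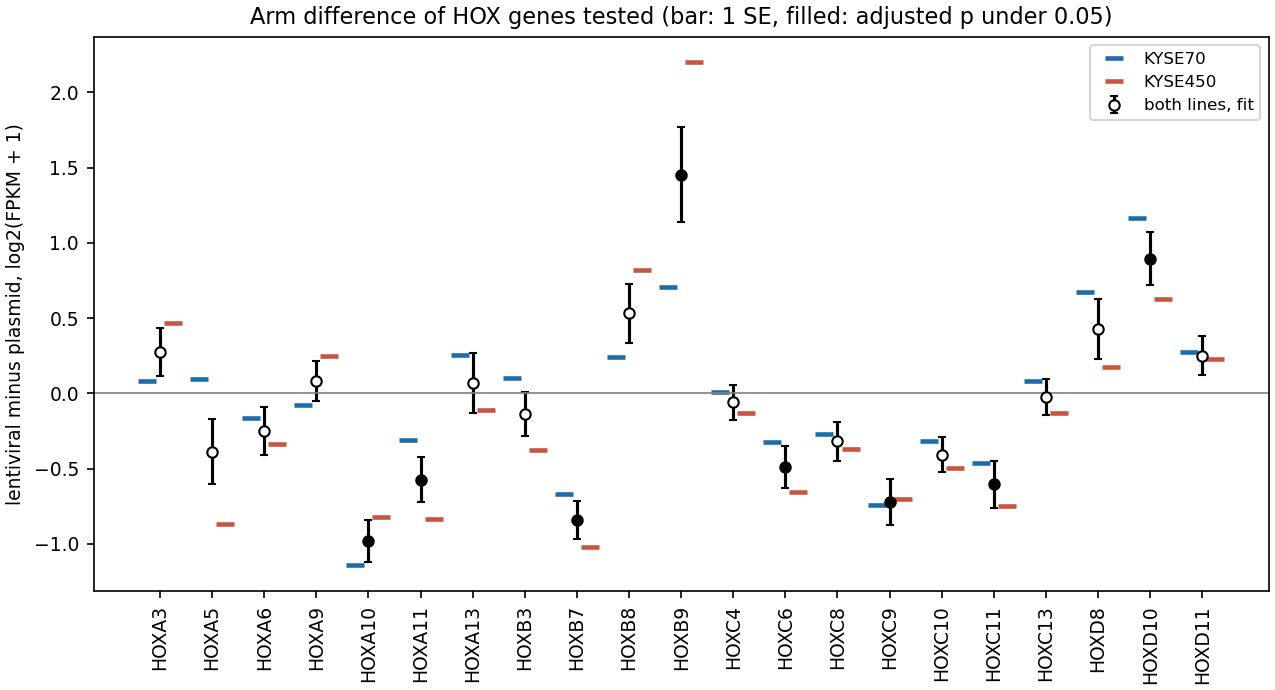
Arm difference (lentiviral minus plasmid, on log2(FPKM + 1)) of 21 of the 22 HOX genes tested: circles are limma estimates over both lines with 1 standard error, filled where the adjusted p is under 0.05, and dashes are the mean difference within KYSE70 (blue) and KYSE450 (red). HOXA10, HOXB7, HOXC6, HOXC8, HOXC9, HOXC10 and HOXC11 lie below 0 in both lines, and HOXB9 and the HOXD genes lie above 0 in both lines.

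NMR overexpression changed 0 of the 22 members, as it changed 0.0% of all genes tested (148 genes and 0 members at an unadjusted p under 0.05; limma). The fit compares each treated library with the control of its line, so n = 2 pairs. Its spread is estimated together with that of the knockdown pairs. The plasmid libraries alone, with 1 residual degree of freedom, gave 0 members and 0.08% of all genes called. The median difference was 0.09 over the members and -0.01 over all genes. HOXD8 had the lowest p, with 1.44 FPKM in the control and 2.95 FPKM with overexpression in KYSE70, and 3.16 and 3.91 FPKM in KYSE450 (0.47 ± 0.20, limma unadjusted p = 0.0542). All 3 HOXD members tested had higher values with overexpression in both lines: HOXD10 by 0.28 and 0.17 and HOXD11 by 0.26 and 0.22, on the log2 scale. Over the 22 members, 7 were higher in both lines, 0 were lower in both, 14 went in opposite directions and HOXB3 had no read in either KYSE70 library, and over all genes 23.0% were higher in both and 27.6% lower in both. The largest disagreement was HOXB8, with -0.27 in KYSE70 and 0.60 in KYSE450.

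NMR knockdown likewise changed 0 of the 22 members and 0.0% of all genes at an adjusted p under 0.05, with 1794 genes and 1 member at an unadjusted p under 0.05 (limma). The median difference was 0.05 over the members and 0.00 over all genes. That member was HOXA13, with 7.75 FPKM in the control and 14.7 FPKM with knockdown in KYSE70, and 4.19 and 5.68 FPKM in KYSE450 (0.60 ± 0.19, limma adjusted p = 0.339). HOXA5 had lower values with knockdown in both lines (-0.40 and -0.27). Over the members 6 were higher in both lines, 3 were lower in both and 13 went in opposite directions, against 27.1% and 25.9% of all genes higher and lower in both. HOXB9 had 23.4 FPKM in the KYSE450 control and 11.7 FPKM with knockdown, but 14.4 and 15.3 FPKM in KYSE70. Its estimate, -0.43 ± 0.26, therefore rests on KYSE450, and without either KYSE450 lentiviral library it was 0.08. Of all genes, the knockdown change in KYSE70 had a rank correlation of -0.49 with the GC content of the exons, and in KYSE450 of 0.05. Median GC was 53.2% in the members tested and 49.3% in all genes tested, and HOXA13 had the lowest of the 39 members, 43.4%. With GC and length trends removed, 0 members were called and HOXA13 had 0.50 ± 0.16 (limma adjusted p = 0.264). The lentiviral libraries alone, with 1 residual degree of freedom, gave 0 members and 0.26% of all genes called.

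**Figure D5:**
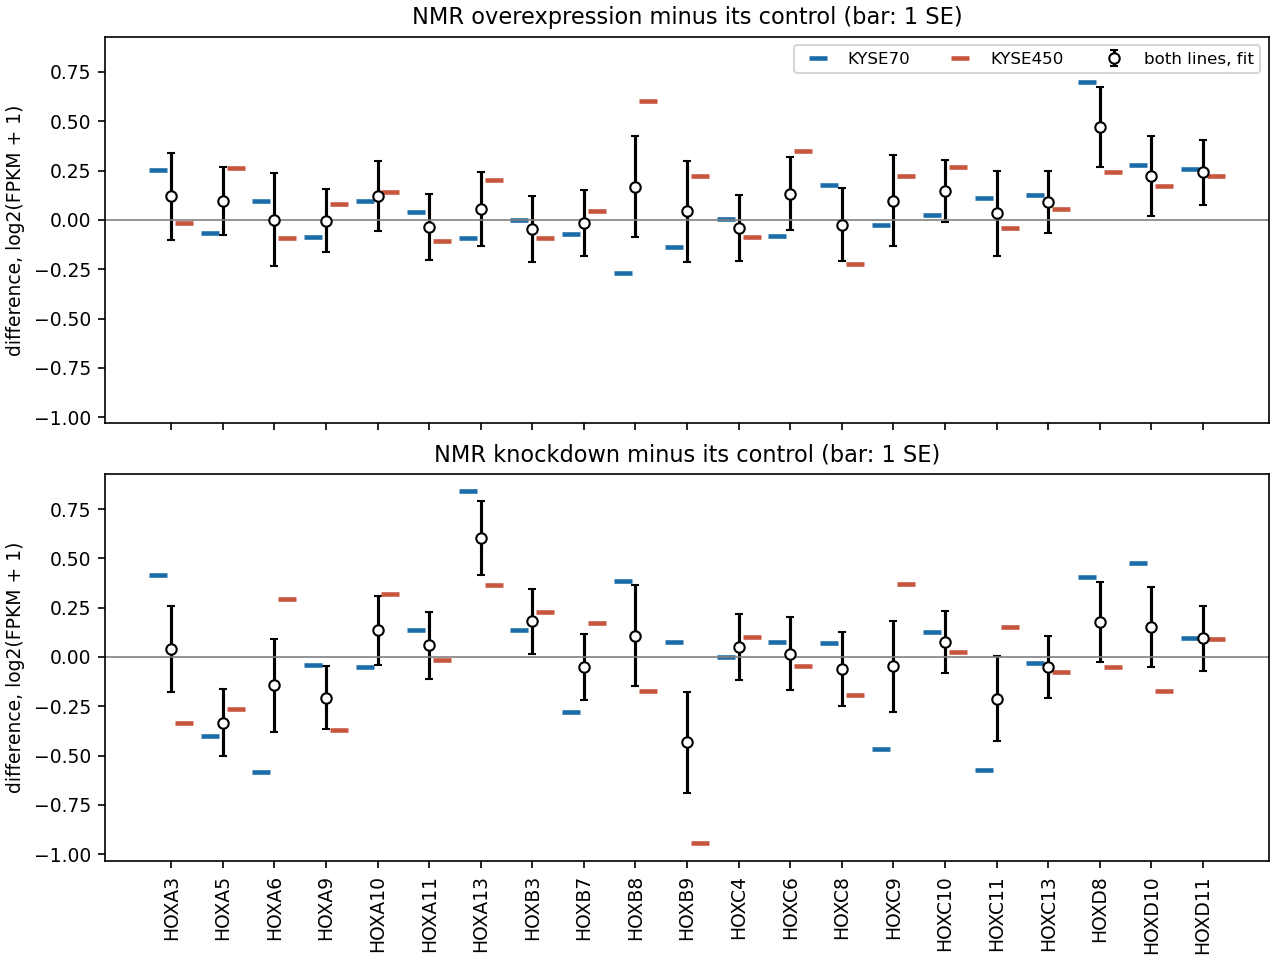
Change with NMR overexpression (top) and NMR knockdown (bottom) of 21 of the 22 HOX genes tested, on log2(FPKM + 1): circles are limma estimates over both lines with 1 standard error, and dashes are the change within KYSE70 (blue) and KYSE450 (red). None passed an adjusted p of 0.05; HOXD8 (0.47) is the highest with overexpression and HOXA13 (0.60) with knockdown, and the lines differ in sign for HOXB9 with knockdown.

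HOX proteins bind DNA together with cofactors of the PBX, MEIS and PKNOX families. Of the 9 cofactor genes 8 were tested. Between the lines 3 were higher in KYSE70 and 2 in KYSE450, against 24.7% and 25.6% of all genes. MEIS3 had 14.9 to 26.9 FPKM in KYSE70 and 1.22 to 1.59 FPKM in KYSE450 (2.96 ± 0.20, limma adjusted p = 1.8e-06). PBX4 (1.49 ± 0.15) and PBX3 (1.27 ± 0.17) went the same way. The 2 higher in KYSE450 were PBX2 (-0.82 ± 0.16, limma adjusted p = 0.00217) and MEIS1, the partner of HOXA9 in leukemia. MEIS1 had 2.09 to 3.32 FPKM in KYSE70 and 5.75 to 14.8 FPKM in KYSE450 (-1.45 ± 0.30, limma adjusted p = 0.00294). None of the 8 was called between the arms, against 14.4% of all genes.

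Among the noncoding RNAs of the clusters, 18 of 30 listed names were found and 9 were tested. Of these, 3 were higher in KYSE70, all in the HOXC cluster: HOXC-AS5 (1.45 ± 0.21), HOXC-AS2 (1.25 ± 0.27) and HOXC-AS1 (0.92 ± 0.23). HOXD-AS1 was the only 1 of the 9 called higher in KYSE450 (-1.23 ± 0.25). Of all genes, 24.7% were higher in KYSE70 and 25.6% in KYSE450. HOTAIRM1, from the 3′ end of the HOXA cluster, rose in the lentiviral arm, with 11.7 to 12.4 FPKM in the plasmid and 21.2 to 23.2 FPKM in the lentiviral libraries of KYSE70, and 17.8 to 18.1 against 21.7 to 24.3 FPKM in KYSE450 (0.58 ± 0.13, limma adjusted p = 0.0229). HOTAIR, from the HOXC cluster, had an arm difference that was not the same in the lines (interaction 1.74 ± 0.30, limma adjusted p = 0.0216). It had 4.32 to 4.53 FPKM in the plasmid and 7.36 to 7.55 FPKM in the lentiviral libraries of KYSE70, and 4.73 to 4.75 against 1.12 to 2.38 FPKM in KYSE450.

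Of the polycomb genes all 21 were tested, with 4 higher in KYSE70 and 2 in KYSE450, against 24.7% and 25.6% of all genes. SUZ12, a core subunit of the complex that methylates histone H3, had the largest of these differences (1.22 ± 0.15, limma adjusted p = 9.51e-05), while EED, its partner, went the other way (-0.76 ± 0.18). Between the arms 3 rose and 3 fell, against 10.0% and 4.35% of all genes. PHF19 fell (-0.78 ± 0.13), as did EZH2, the methyltransferase itself (-0.46 ± 0.12), and PHC1 rose (0.75 ± 0.17). Of the trithorax and MLL genes 10 of 14 were tested, with 2 higher in KYSE70 and 3 in KYSE450, and 2 rose in the lentiviral arm. The shares of all genes were 24.7%, 25.6% and 10.0%. KDM6B, which removes the polycomb mark, had 15.3 to 16.6 FPKM in the plasmid and 35.0 to 39.1 FPKM in the lentiviral libraries of KYSE70, and 21.1 to 26.3 against 48.7 to 61.6 FPKM in KYSE450 (1.18 ± 0.12, limma adjusted p = 0.0023).

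Upstream of the clusters stand retinoic acid and CDX factors. Of 13 such genes 9 were tested, with 3 higher in KYSE70 and 1 in KYSE450, against 24.7% and 25.6% of all genes. In the lentiviral arm 1 fell and 0 rose, against 4.35% and 10.0% of all genes. CYP26A1, which breaks down retinoic acid, had 21.1 to 42.2 FPKM in KYSE70 and 0.328 to 5.16 FPKM in KYSE450 (3.30 ± 0.43, limma adjusted p = 0.000179). CTCF, which binds boundaries within the clusters, was the 1 gene that fell in the lentiviral arm, with 41.0 to 43.7 FPKM in the plasmid and 21.4 to 25.2 FPKM in the lentiviral libraries of KYSE70, and 35.6 to 44.8 against 21.97 to 22.8 FPKM in KYSE450 (-0.82 ± 0.11, limma adjusted p = 0.00634). The intestinal HOX activators CDX1, CDX2 and CDX4 had at most 0.0319 FPKM. Of 19 genes beside the clusters 11 were tested, with 2 higher in KYSE70, 4 in KYSE450 and 0 called between the arms. The shares of all genes were 24.7%, 25.6% and 14.4%. SNX10 and HIBADH, which lie beyond the HOXA cluster, were higher in KYSE70 (1.36 ± 0.32 and 0.87 ± 0.23), while MTX2 beyond HOXD was higher in KYSE450 (-0.67 ± 0.14). In the KYSE70 knockdown library SNX10 had 38.4 FPKM and HIBADH 161 FPKM. The other KYSE70 libraries had 16.5 to 17.5 and 73.7 to 81.2 FPKM. Homeobox genes outside the clusters differed between the lines in 19 of 26 tested, against 50.3% of all genes. The extremes were DLX3 toward KYSE70 (3.61 ± 0.36) and NKX2-1 toward KYSE450 (-3.98 ± 0.27). Each passed the filter through the line in which it was high. The mean of DLX3 was 0.0874 FPKM in KYSE450 and that of NKX2-1 was 0.271 FPKM in KYSE70. In KYSE70 DLX3 had 29.8 FPKM in the knockdown library and 7.51 to 11.3 FPKM in the others.

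Some markers of cell state separated by arm as well. The 12 squamous markers summed to 13857 to 17050 FPKM in the plasmid and 8529 to 10047 FPKM in the lentiviral libraries of KYSE70, and to 20451 to 27921 against 11253 to 15886 FPKM in KYSE450. KRT5 and KRT6A made up most of each sum, with 8172 and 3585 FPKM in the KYSE70 overexpression control and 14239 and 3122 FPKM in that of KYSE450. Of the 12 markers 2 were called lower and 1 higher in the lentiviral arm, against 4.35% and 10.0% of all genes. KRT5 (-1.15 ± 0.26, limma adjusted p = 0.0237) and TRIM29 (-0.65 ± 0.16, limma adjusted p = 0.0340) fell, and TP63 rose (0.87 ± 0.20, limma adjusted p = 0.0256). The 11 fibroblast and muscle markers summed to 33.7 to 35.2 and 50.04 to 65.2 FPKM in the plasmid and lentiviral libraries of KYSE70, and to 38.2 to 39.7 and 35.0 to 43.3 FPKM in KYSE450. Of these, COL1A1 had a mean of 25.2 FPKM in KYSE70 and 33.2 FPKM in KYSE450, COL3A1 10.2 and 2.34 FPKM and THY1 8.95 and 0.0706 FPKM, while DCN had at most 0.0336 FPKM and COL1A2 at most 0.262 FPKM. The part of these shifts in the HOX differences between the arms was not tested, and in bulk RNA fewer cells that use a gene and less RNA per cell cannot be told apart.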

How the data were processed

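RNA was sequenced in 8 libraries, 2 cell lines in 4 groups, which were taken from the sample titles. Per the submitters' processing notes the tools were HTSeq 0.6.1 and TopHat2 2.0.9 on the build hg19, with no roles given; annotation, filters and strand were not stated. The authors deposited 1 value per gene and library, and the unit, FPKM, was read from the values, since no header or label names it. Within each of 30872 genes all values were whole multiples of 1 step (within 0.02 of a whole number), which gave reads that made up 99.8% of each library.

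The 14311 genes whose mean reached 1 FPKM (22 members among them) were tested on log2(FPKM + 1) with limma 3.58.1 (trend) in R 4.3.3 with Benjamini-Hochberg adjustment and a threshold of 0.05. Cell line was the only term between the lines (6 residual degrees of freedom), the arms were fitted with line as a term (5), the interaction with both (4), and the treatments with a term for each pair of treated library and control (2). Same-numbered libraries come from the same line, so the numbers pair the libraries. The fits were tested on simulated data. The written design gave a count test if the files held counts and this fit otherwise. The members and all gene lists were chosen with earlier results of these data known. Named were members with a mean of 1 FPKM in a line and, per list and comparison, up to 3 genes called by p, then by level. Some genes beyond this rule, such as PBX2 and MEIS1, were also named. Alternatives changed the pseudocount, filter, scaling, terms, libraries and count model, and removed loess trends (span 0.3) on GC content and exon length. The fit of treated libraries alone was added after the data were seen. Exons, strands and transcripts come from GENCODE release 29 (GRCh38) and promoter windows from RefSeq (GRCh38.p14); a script found the helix bases by translating the transcripts in 3 frames. The values of 1 member and 1 set of sequences are not reported here, though that member stays in the counts and sums.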

Additional observations from a re-analysis of the deposited data

How the results depend on the processing

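Signs were followed under the alternatives for the members called in a comparison and for a few others picked by hand. These differences kept their sign, except for HOXB9 with knockdown. It ran from -0.943 to 0.0759 with 1 library left out and was reversed (0.0759) without either KYSE450 lentiviral library. Differences that were not followed did not all keep their sign: the arm difference of HOXA9 was -0.08 in KYSE70 and 0.25 in KYSE450. Between the lines 14 of 22 members tested were called, against 50.3% of all genes. With genes at a mean FPKM of at least 0.1 this became 22 of 33 (41.7% of all genes). At a mean of at least 5 it became 5 of 8 (50.1%), so the counts moved with the number of members tested. With the groups as terms it was 15 of 22 (54.0%), in the plasmid arm alone 18 (72.1%) and in the lentiviral arm alone 10 (39.2%). The 8 arm calls became 0 in KYSE70 alone (0% of all genes called) and in the controls alone (0.51%). They also became 0 in the treated libraries alone (0.04%) and with no replicate block, that is no line term (0.07%). At a mean of at least 5 FPKM 3 of 8 members were called (15.6% of all genes), and with no filter 2 of 37 (2.02%). Leaving out 1 library gave 2 to 8 arm calls, with 3.38% to 17.5% of all genes called. For arm by line, 0 calls became 1 with median-ratio scaling and 1 with quantile normalization (HOXB9 in both), and 0 to 5 with 1 library left out. With knockdown, 0 to 1 members were called with 1 library left out: HOXA13 without either KYSE450 lentiviral library (0.84; 33.8% of all genes called) and HOXB9 without either KYSE70 one (4.07% and 4.05% of all genes), fits in which the change rests on 1 pair. Overexpression gave 0 member calls throughout. A level of 5 FPKM left 8 members in KYSE70 and 6 in KYSE450. Limma voom on the recovered reads called 14, 7, 0, 0 and 0 members in the 5 comparisons. The shares of all genes called in these fits were 49.9%, 16%, 5.46%, 0% and 0.028%. The replicate block changed no other count. Low members rest on few reads, and line and arm rest on 2 cell lines.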
